A study of Astyanax mexicanus with 12 samples.

Results

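Starved and control ovaries of Tinaja cavefish were compared, using the 3 starved and the 3 control libraries of that population, which are 6 of the 12 libraries of the study. They were taken by their column names in the table of reads per gene. The 14627 genes that also stand in the authors' scaled table, of 27420 in all, were tested. The study sequenced bulk RNA of right ovaries from females of Astyanax mexicanus, a fish that lives both in rivers, as surface fish, and in caves such as Tinaja. All fish were labelled as wild type and were about 660 days old, and the controls were labelled as not treated. The other 6 libraries came from 3 control and 3 starved surface fish of the same age. The sources used here give neither the length of the fast nor whether fish of a group were kin. The labels say only that the replicates are separate samples, so each p-value measures the spread between these samples.

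A fish ovary holds oocytes at many stages, each wrapped in granulosa and theca cells and set in a stroma with vessels, immune cells and, at times, fat. Food shortage is known in many fish to slow the growth of oocytes, which take up yolk proteins and lipids made in the liver. Cavefish of this species are known for storing fat and for withstanding long fasts.

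The 6 Tinaja libraries held 5949155 to 7973058 reads assigned to genes, so 3 reads equal 0.372 to 0.492 CPM (reads relative to library size, with trimmed mean of M values factors). Markers of the labelled tissue were present, with germ cell genes abundant. The 20 oocyte genes averaged 7.40 to 7.81 on the log2 CPM scale and the 8 egg coat genes 8.72 to 9.14 in the 6 ovaries. Granulosa genes were low, with a mean over 10 genes of 1.19 to 1.90. In bulk ovaries, fewer cells of a type and less RNA per cell cannot be told apart.

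Very few genes were called between starved and control Tinaja ovaries. By the edgeR quasi-likelihood test with Benjamini-Hochberg adjustment, 3 genes passed an adjusted p of 0.05, which is 0.0205% of those tested. Of these, 1 was higher in starved fish (0.00684%) and 2 were lower (0.0137%). At an unadjusted p under 0.05 there were 578 genes (3.95%), with 310 higher (2.12%) and 268 lower (1.83%). In 1261 genes (8.62%) the 3 starved values did not overlap the 3 control values, with 686 above (4.69%) and 575 below (3.93%). The count of calls rested on single libraries: leaving out starved 1 gave 32 and leaving out control 1 gave 19, while omitting control 2 or starved 3 gave 5 each. DESeq2 called 18.

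BAHCC1 (ENSAMXG00000016074), which encodes a chromatin-associated protein, measured 45.3, 50.6 and 49.6 CPM in control fish and 83.0, 75.3 and 99.3 CPM in starved fish. Every starved ovary lay above every control ovary. It rose by 0.82 ± 0.102 (SE) on the log2 scale, with an edgeR adjusted p of 0.0137. Among fits without a replicate block, the call ended without control 3 (adjusted p = 0.0721), in the fit of the 6 Tinaja libraries alone (0.316) and with limma voom (0.0787). The count table holds 2 genes with this symbol, so the division of reads between them is uncertain.

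ENSAMXG00000001654, a gene without a symbol, measured 79.4, 72.0 and 83.7 CPM in control fish and 39.0, 44.2 and 44.3 CPM in starved fish. The groups lay far apart compared with the spread inside each. It fell by 0.88 on the log2 scale (SE 0.0842, edgeR adjusted p = 0.00219). Among fits without a replicate block, the call ended in the fit of the 6 Tinaja libraries alone (0.0786). ENSAMXG00000016415, also without a symbol, had 73, 51 and 48 reads in control fish and 0 reads in each starved fish. Against a floor of 3 reads over the starved group it was at least 60.9-fold lower (edgeR adjusted p = 0.00354). The call ended in the fit of the 6 Tinaja libraries alone (0.0786) and with limma voom (0.304).

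DNAH17, a heavy chain of the dynein motor of cilia, stood nearest to the threshold from outside. It measured 102, 92.3 and 86.8 CPM in control fish and 139, 140 and 169 CPM in starved fish, a log2 difference of 0.67 (SE 0.100, edgeR adjusted p = 0.0670). The gene dlgap5, which encodes a protein of the mitotic spindle, measured 322, 246 and 233 CPM against 337, 423 and 439. Its control 1 and starved 1 lay close together, and the adjusted p was 0.612. ENSAMXG00000016247 measured 11.8, 2.87 and 3.07 CPM against 21.1, 28.0 and 30.7, again with control 1 as the highest control and starved 1 as the lowest starved fish, and the same adjusted p of 0.612.

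**Figure D1:**
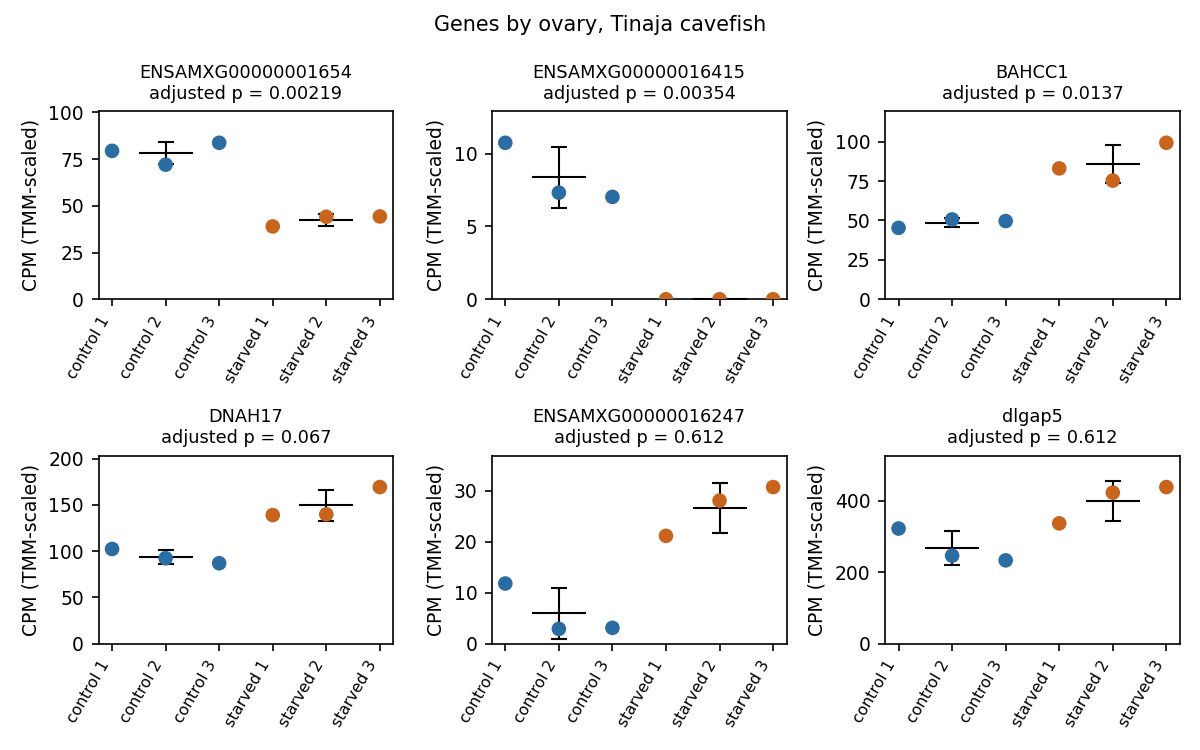
CPM in each of the 6 Tinaja ovaries (points; blue control, orange starved) for the 6 named genes of smallest adjusted p (ties by unadjusted p), with the mean (bar) and SD (whiskers) of 3 ovaries. The upper row holds the 3 genes that passed the threshold, and in all 6 panels the starved and control ovaries do not overlap.

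The small number of calls came with a fit of moderate precision. The biological coefficient of variation was 0.191 and the median SE of a log2 change was 0.173. For 10559 genes (72.3%) the 95% interval of the change lay within 2-fold in both directions, and for 8171 (55.9%) within 1.5-fold. The median size of a log2 change was 0.107 in Tinaja fish and 0.211 in surface fish, while the median SD within groups was 0.189 and 0.188. In surface fish the same fit called 466 genes (3.19%). Feeding accounted for 21.0% of the variation among the 6 Tinaja libraries, where its share of the degrees of freedom is 20%, and for 31.2% among the 6 surface libraries.

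Among named genes with at least 1 CPM, an unadjusted p under 0.05 and no overlap, the largest differences were often carried by 1 or a pair of fish, and none passed the adjusted threshold. The highest ratio was that of zgc:136564, at 0.736, 0.287 and 0.293 CPM in control and 0.777, 15.1 and 17.1 CPM in starved fish (edgeR adjusted p = 0.904). There starved 1 lay just above the controls while starved 2 and 3 lay far above. The gene stat3, a transcription factor of cytokine signalling, measured 8.68, 5.31 and 6.00 CPM against 10.5, 12.5 and 62.8 (0.965), so that starved 3 carried most of the difference. The channel gene trpm1a measured 3.09, 11.0 and 1.17 CPM against 35.1, 20.5 and 13.9 (0.965), and here starved 1 was the highest. Also among the 10 largest differences upward were those of dmc1, cyp51, znf362b, dclk1a, lhpp and SMARCD2, with log2 values of 1.58 to 2.43.

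On the lower side, the orphan receptor gene GPR153 measured 1.18, 9.47 and 15.4 CPM in control and 0.907, 0.248 and 0.492 CPM in starved fish (edgeR adjusted p = 0.801). Control 1 lay beside the starved fish. The chaperone gene clu measured 14.3, 8.03 and 9.81 CPM against 1.81, 4.96 and 2.95, a log2 difference of -1.71 (SE 0.368, 0.612). The mitochondrial carrier gene slc25a24 measured 1.77, 1.72 and 2.93 CPM against 0.389, 0.868 and 0.328 (0.612). Both had all 3 starved fish clearly lower at low levels. The membrane repair gene myof measured 6.91, 9.47 and 17.9 CPM against 5.44, 1.86 and 1.97 (0.904). The others of the 10 largest differences downward were those of myoz1b, MYLK, SYNPO2L, PDZRN3, col11a2 and bsk146, with log2 values of -2.05 to -1.58.

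Gene lists for ovarian cells and for the known responses to fasting gave no called member. The 36 lists held 1003 different tested genes, of which 0 passed the edgeR threshold, beside 0.0205% of all genes. For 726 of them (72.5%) the 95% interval lay within 2-fold. For 20 lists of fasting, metabolism and cell function the median log2 difference ran from -0.33 to 0.07, against -0.00 over all tested genes.

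No oocyte or egg coat gene was called, and their differences were small. The gene bmp15, a growth factor made by the oocyte, measured 109, 112 and 115 CPM in control and 113, 116 and 108 CPM in starved fish. The egg coat gene zpcx measured 1550, 1745 and 2330 CPM against 1706, 1768 and 1889. The groups overlapped for both genes. Over the 20 oocyte genes the median log2 difference was -0.00 with 19 intervals within 2-fold, and over the 8 egg coat genes it was -0.06 with all 8 within 2-fold. In starved surface fish 7 of the same 20 oocyte genes and 2 of the 8 egg coat genes were called higher, beside 1.74% of all tested genes. Among the 7, piwil1 had log2 differences of 0.22 in Tinaja and 0.51 in surface fish. The edgeR test of the difference between the populations' responses did not call it (adjusted p = 0.444).

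Genes of protein synthesis, division and respiration were not called either. Of 79 genes of the cytosolic ribosome, 0 had an unadjusted p under 0.05 in Tinaja fish, beside 3.95% of all genes. Their median log2 difference was -0.04, and 77 intervals lay within 2-fold. In surface fish 27 of these 79 were called higher, beside the same 1.74%, with a median of 0.41. The genes rpl5a, rpl35a and rps21, of smallest unadjusted p in Tinaja fish, were not among the 27 (edgeR adjusted p in surface fish 0.357, 0.108 and 0.0537). By the edgeR test of the difference between the populations' responses, these genes were not called (adjusted p = 0.248, 0.177 and 0.160). The result of that test for the 27 is not given here. Of 45 cell cycle genes, 0 had an unadjusted p under 0.05, beside the same 3.95%, with a median of 0.01 and 38 intervals within 2-fold. The replication helicase gene mcm5 measured 189, 175 and 179 CPM against 198, 206 and 190, a small difference without overlap (edgeR adjusted p = 1). For the 91 genes of oxidative phosphorylation the median was -0.02. Among them, 4 had an unadjusted p under 0.05 with lower values in starved fish and 8 lay below without overlap, beside 1.83% and 3.93% of all genes. The complex III subunit gene UQCR11 measured 38.4, 28.4 and 26.6 CPM against 24.5, 22.6 and 15.1, and the complex IV subunit gene cox7a2a 35.2, 37.4 and 36.7 against 28.2, 29.6 and 32.0 (adjusted p of 1 for both).

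Genes that sense nutrients and hormones overlapped between the feeding groups in most cases. The insulin receptor gene insra measured 132, 128 and 130 CPM in control and 130, 126 and 136 CPM in starved fish. The mTOR inhibitor gene ddit4 measured 342, 393 and 378 CPM against 427, 331 and 354. Both pairs of groups overlapped, with log2 differences of 0.01 (SE 0.101) and -0.00 (SE 0.0981). The amino acid response genes atf4a and asns measured 217, 205 and 218 CPM against 198, 234 and 173, and 28.7, 31.9 and 29.3 against 28.0, 35.5 and 31.0. The symbol asns stands on 3 genes of the table, so its reads are uncertain. The gene fkbp5, a target of the glucocorticoid receptor, spread widely inside the groups, at 21.0, 13.8 and 12.6 CPM against 3.37, 19.5 and 11.5. The edgeR adjusted p was 1 for all of these. Too few reads were counted to test igf2a, klf9, lpl and hmox1a, which had at most 8 reads in any Tinaja library, and hsp70.1 has no entry under that symbol.

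Within the list of FOXO and starvation genes, bnip3la, a receptor that marks mitochondria for removal, had the smallest unadjusted p. It measured 37.4, 38.6 and 34.5 CPM in control and 46.2, 52.6 and 60.9 CPM in starved fish. All starved ovaries lay above the controls, with a log2 difference of 0.53 (SE 0.116, edgeR adjusted p = 0.631). IRS1, an adaptor of the insulin receptor, measured 43.8, 43.8 and 30.7 CPM against 52.2, 44.5 and 49.4 (edgeR adjusted p = 1). These were the 2 of 40 genes in that list with an unadjusted p under 0.05, a share near the 3.95% of all genes. The clock gene arntl2 measured 29.3, 30.1 and 31.9 CPM against 35.2, 45.2 and 40.2 (edgeR adjusted p = 0.904), the only one of 37 clock genes with an unadjusted p under 0.05, which is again no more than the share over all genes.

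Genes of cholesterol synthesis with low p-values were all higher in starved fish, and the 3 of smallest p were at very low levels. Of 28 tested, 4 had an unadjusted p under 0.05, all higher in starved fish, and 6 lay above the controls without overlap, beside 2.12% and 4.69% of all genes. In 1 gene the starved fish lay below without overlap, beside 3.93% of all genes. The gene cyp51, lanosterol demethylase, measured 0.147, 0.430 and 0.586 CPM in control and 0.907, 1.98 and 3.28 CPM in starved fish. The gene msmo1, an enzyme of the same path, measured 1.03, 1.29 and 1.61 CPM against 3.24, 1.98 and 2.63. The control values of cyp51, from 1, 3 and 4 reads, are near the level of 3 reads, while those of msmo1 came from 7, 9 and 11 reads. The gene hmgcra, for the rate-limiting enzyme, was below 1 CPM in all 6 ovaries. The gene hmgcs1, at higher levels, overlapped with 80.8, 88.4 and 79.3 CPM against 93.0, 84.4 and 96.8. The list median was 0.07, and the edgeR adjusted p was 0.969 for cyp51 and 1 for the other three.

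Sugar and stress genes with an unadjusted p under 0.05 were lower in starved fish, while both lists also held genes that lay higher. Of 51 genes of glycolysis and gluconeogenesis, 3 had an unadjusted p under 0.05 with lower values in starved fish and 7 lay below without overlap, beside 1.83% and 3.93% of all genes, while 2 lay above, beside 4.69%. The pyruvate dehydrogenase gene pdha1a measured 195, 182 and 203 CPM against 157, 161 and 162, and the glycogen phosphorylase gene pygmb 49.3, 54.4 and 48.2 against 41.2, 43.7 and 43.6. Starved ovaries were lower in both, by 0.27 and 0.24 on the log2 scale (edgeR adjusted p = 1). Of 44 stress genes 5 had an unadjusted p under 0.05, all lower, beside 1.83% of all genes. Groups of 3 stress genes each lay above and below the controls without overlap, beside 4.69% and 3.93% of all genes. The superoxide dismutase genes sod1 and sod2 were among the 5 with an unadjusted p under 0.05. They measured 58.0, 62.1 and 67.6 CPM against 51.7, 55.3 and 52.8, and 100, 130 and 139 against 97.4, 104 and 99.3 (edgeR adjusted p = 1). In sod2 control 1 lay among the starved fish. In the lipid synthesis list, 3 of 39 genes with an unadjusted p under 0.05 were higher and 1 was lower, beside 2.12% and 1.83% of all genes. Among the 3, the sugar-responsive transcription factor gene MLXIPL averaged 2.52 ± 0.304 CPM in control and 6.89 ± 2.56 CPM in starved fish (SD, n = 3 each), without overlap (edgeR adjusted p = 0.904). The lower gene, LPIN1, measured 2.65, 24.5 and 11.0 CPM against 3.24, 1.61 and 1.97, so that control 1 lay among the starved fish (edgeR adjusted p = 0.965).

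**Figure D2:**
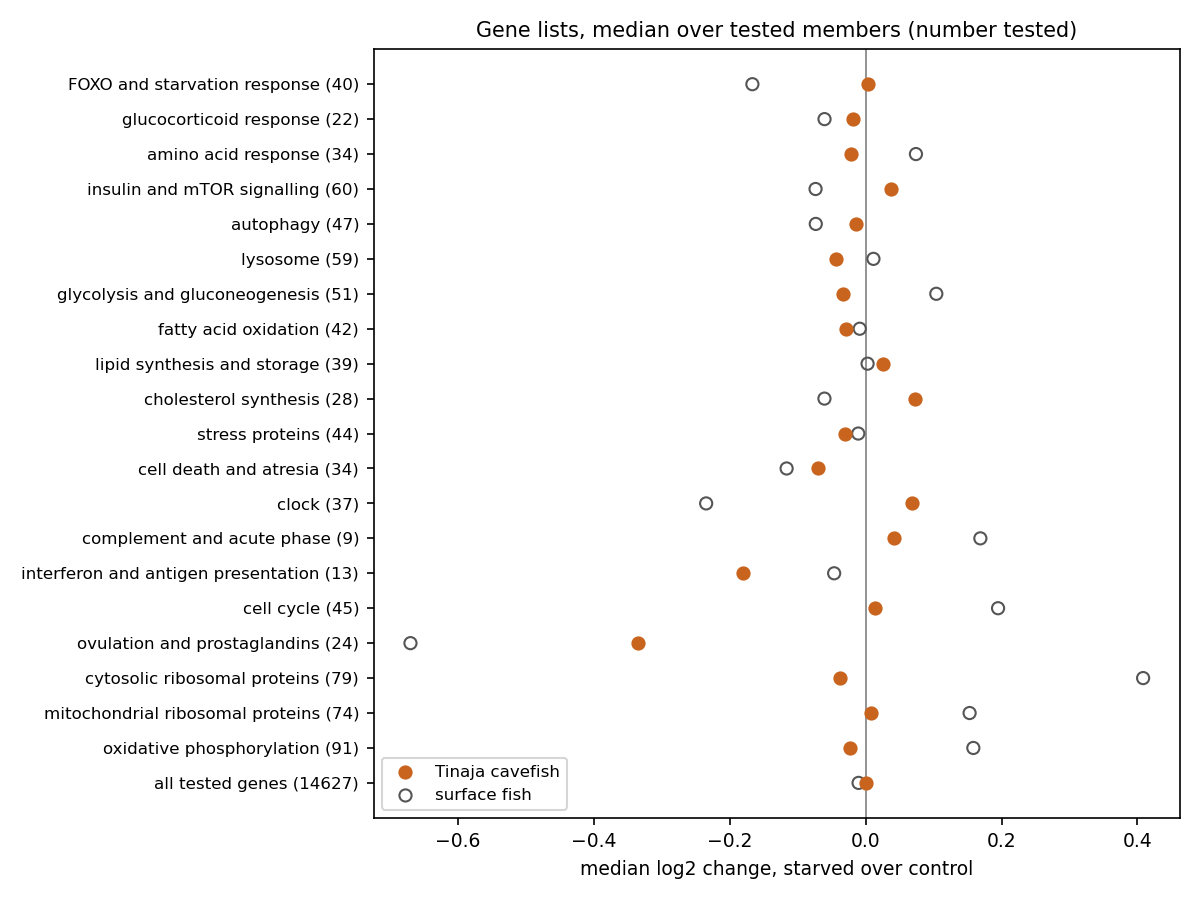
Median log2 change of starved over control fish for the 20 lists of fasting, metabolism and cell function and for all tested genes (number tested in brackets), in Tinaja cavefish (filled) and surface fish (open). The Tinaja medians lie near 0 apart from ovulation and prostaglandins at -0.33 and interferon and antigen presentation at -0.18, while in surface fish the same ovulation list lies at -0.67 and the cytosolic ribosome list at 0.41.

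Among these 20 lists, that of ovulation and prostaglandins had the lowest median, -0.33 over 24 genes, ranging from -0.61 without starved 2 to -0.12 without control 1. Some cell type lists had lower medians, among them the liver proteins at -0.91 over 5 genes (-0.52 without control 3) and skeletal muscle at -0.35 over 7 genes (-0.09 without control 2 and -0.10 without control 3). The matrix protease gene mmp14b measured 37.7, 24.4 and 39.4 CPM in control and 18.4, 17.4 and 23.1 CPM in starved fish, without overlap (edgeR adjusted p = 0.965). NPR2, a receptor that acts in oocyte maturation, measured 2.94, 29.4 and 1.61 CPM against 1.42, 2.36 and 2.13, so control 2 alone was high. The prostaglandin synthase gene ptgs2b measured 1.03, 8.32 and 3.81 CPM against 2.33, 0.248 and 0.164.

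The first principal component of the 6 Tinaja ovaries, over the 2000 genes of largest variance, held 34.6% of that variance and mixed the groups. Its scores were 32.3, -26.6 and -19.5 in control and -25.9, 29.3 and 10.4 in starved fish. The second, with 24.5%, separated them, at 23.1, 4.63 and 24.6 against -12.6, -3.10 and -36.6. Once each feeding group's mean is taken off, no component can follow feeding. The first component of the 2000 genes of largest remaining variance then held 43.5% of that variance. Its scores were 37.5, -23.4 and -14.1 in control fish and -30.1, 26.4 and 3.68 in starved fish. Control 1 and starved 2 stood at 1 end and control 2 and starved 1 at the other. Counts of reads also placed fish of unlike feeding together. By chi-square per degree of freedom across genes, the closest pair of all 12 libraries was Tinaja control 2 with starved 1, at 4.87, followed by starved 2 with starved 3 at 6.02 and control 1 with starved 2 at 6.08. No pair came near the value of 1 that sampling noise alone would give, so no library was counted as a duplicate.

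Many markers of connective tissue, immune cells and fat varied along this axis within groups, though not all members of each list did so in the same direction. The collagen gene col1a2 measured 72.8, 10.0 and 44.9 CPM in control and 4.15, 25.3 and 13.0 CPM in starved fish. The smooth muscle actin gene acta2 measured 18.8, 5.02 and 6.59 CPM against 2.98, 15.3 and 10.2. In both, control 1 was the highest ovary and starved 1 the lowest. The white blood cell gene lcp1 measured 37.8, 3.16 and 11.0 CPM against 2.46, 23.4 and 1.80, and the fat cell gene fabp4a 91.6, 25.4 and 15.7 against 2.33, 34.4 and 8.20. The lipid droplet gene plin2 measured 14.1, 0.430 and 2.93 CPM against 0.648, 7.81 and 0.820. Control 1 was the highest in each, and starved 2 the highest of the starved fish.

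Of the stroma list 23 of 24 tested genes increased with the score, of the macrophage and neutrophil list 13 of 18, of the fat cell list 12 of 16 and of the smooth muscle list 11 of 14, beside 6930 of all 14627 genes. Members that decreased with it included the macrophage receptor gene csf1ra, the oxidase subunit genes cyba and ncf1, and SLC2A4, the glucose transporter of fat and muscle. The median share of a gene's variation inside groups that lay on the axis was 77.5% for stroma, 59.5% for smooth muscle, 52.9% for fat cells and 47.1% for macrophages and neutrophils, beside 19.8% over all genes. Other lists had like shares: 48.1% for epithelium and mesothelium, where 8 of 18 genes increased with the score, and 45.1% for lipid synthesis and storage, where 22 of 39 did. The share was 2.95% for the oocyte list and 5.96% for the egg coat list. The axis was fitted to genes of largest spread in these same ovaries, so lists of large spread helped to define it. The median SD of a gene within groups was 0.84 for stroma and 0.15 for the oocyte list. The mean log2 CPM of the 24 stroma genes was 4.18, 3.05 and 3.56 in control and 2.29, 3.81 and 3.28 in starved fish. That of the 18 macrophage and neutrophil genes was 2.68, 1.88 and 2.21 against 0.98 in starved 1 and 1.28 in starved 3, with starved 2 between control 1 and control 3. The groups overlapped for both lists. The median log2 difference between starved and control was -0.56 over the stroma genes, ranging from -1.07 without starved 2 to -0.04 without control 1. Over the macrophage and neutrophil genes it was -0.62, ranging from -1.18 without starved 2 to -0.30 without control 1. The SD of the list's own median between ovaries of a group was 0.78 and 0.71. In the stroma list the fibronectin gene fn1b was lower in each starved ovary, at 70.8, 60.5 and 60.3 CPM against 30.1, 43.5 and 25.1 (edgeR adjusted p = 0.904). The part of these cell types in the feeding comparison was not tested.

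**Figure D3:**
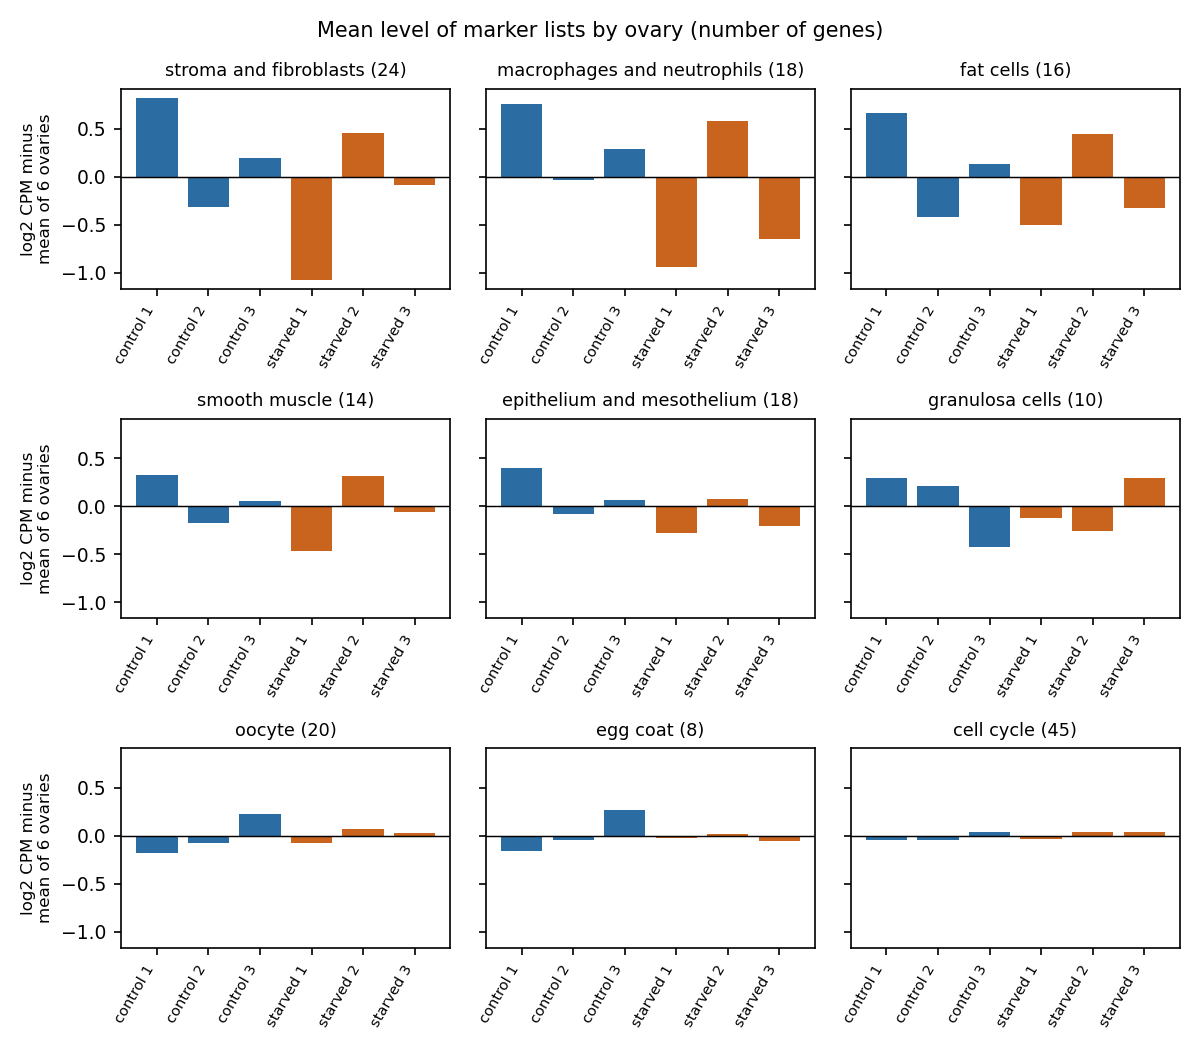
Mean log2 CPM of marker lists in each Tinaja ovary minus the mean of the 6 ovaries (bars; blue control, orange starved; number of genes in brackets). Stroma, macrophage and fat lists are highest in control 1 and lie above the mean in starved 2. The range over the 6 ovaries is 1.89 for stroma, 0.41 for oocyte, 0.42 for egg coat and 0.086 for cell cycle.

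A further layer of variation consisted of genes that were present in some fish and nearly silent in others of the same feeding group. With at most 1 read in 1 ovary and at least 50 in another of the same group, there were 42 such genes (0.287% of those tested), 24 in the control and 24 in the starved group. The metalloproteinase inhibitor gene timp4.3 had 166, 0 and 0 reads in control and 0, 294 and 133 reads in starved fish. The tight junction gene cldn12 had 75, 0 and 0 reads against 0, 128 and 179. In both, control 1 and starved 2 and 3 held the reads. The photoreceptor nuclear receptor gene nr2e3 had 0, 86 and 78 reads against 58, 0 and 4, the reverse arrangement.

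Some genes of this kind had at most 1 read in a single fish. NAAA, an amide hydrolase, had 417, 0 and 416 reads in control and 249, 321 and 235 reads in starved fish. UNC13A, known for priming synaptic vesicles, had 627, 306 and 288 reads against 341, 370 and 1. Others were nearly silent in most fish. ARMC3 had 4, 0 and 0 reads against 369, 6 and 0, and so came from starved 1 almost alone. The quinone reductase gene nqo1 had 0, 192 and 217 reads in control and 1, 0 and 1 reads in starved fish. There control 1 sat with the starved fish, and the edgeR adjusted p was 0.904. Its symbol stands on 2 genes of the table.

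Genes with low p-values were unevenly placed in the genome. Gene symbols were matched to the RefSeq annotation of the AstMex3_surface assembly, which gave 9198 tested genes a unique match. Of the 578 genes with an unadjusted p under 0.05, 333 were matched. The 3 called genes and DNAH17 were not, so their chromosomes are not known here. Chromosome 15 was singled out after these values were seen. It held 39 genes with an unadjusted p under 0.05 among 305 matched (12.8%), against 3.31% of the 8893 matched genes elsewhere. Of the 39, 22 were higher and 17 lower in starved fish. At an unadjusted p under 0.01 there were 16 (5.25%), against 0.837% of all matched genes. Chromosome 25 followed with 15 of 147 (10.2%). In surface fish the share on chromosome 15 was 20.7%, against 23.7% of all matched genes.

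**Figure D4:**
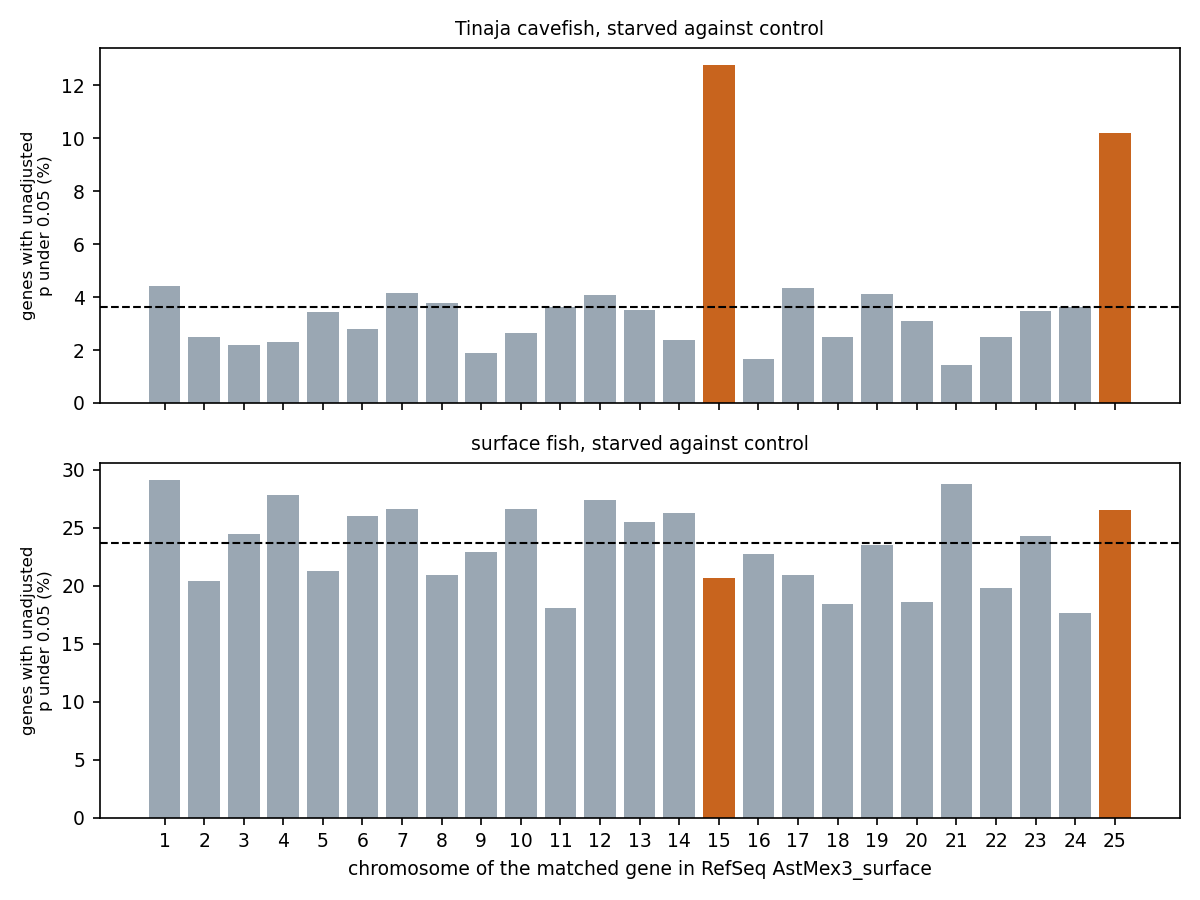
Share of matched genes with an unadjusted p under 0.05 on each chromosome of AstMex3_surface, for starved against control fish in Tinaja cavefish (top) and surface fish (bottom); the dashed line is the share over all matched genes. Chromosomes 15 (12.8%) and 25 (10.2%), in orange, stand above the others in Tinaja fish, and chromosome 15 lies at 20.7% in surface fish.

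The genes concerned had varied roles. The histone co-chaperone gene dnajc9 measured 73.1, 63.8 and 64.7 CPM in control and 78.9, 90.2 and 83.5 CPM in starved fish. The gene vps35l, a subunit of an endosomal recycling complex, measured 53.7, 49.5 and 49.8 CPM against 64.4, 66.6 and 63.5. The translation termination factor gene gspt1 measured 59.1, 46.8 and 55.6 CPM against 66.2, 67.4 and 74.8. Starved fish were higher in all 3 without overlap. The mitochondrial sideroflexin gene sfxn2 measured 24.4, 30.8 and 29.4 CPM against 20.2, 13.8 and 12.8, and entpd1, an enzyme that breaks down extracellular ATP, 12.9, 14.3 and 13.3 against 9.20, 2.60 and 1.97. Starved fish were lower in both, and starved 1 lay nearest to the controls. The edgeR adjusted p was 0.612 for dlgap5 and sfxn2 and higher for the other 14 of the 16 genes. Along the order of matched genes, the densest window of 50 ran from hpdl to gspt1 and held 17 genes with an unadjusted p under 0.05, and the densest window of any other chromosome held 9.

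Control 1 and starved 1 lay between the other fish for many of these genes. Control 1 was the control nearest to the starved fish in 29 of the 39 genes, and starved 1 the starved fish nearest to the controls in 26. Both held in 21 genes (53.8%), against 16.5% of the 279 genes with an unadjusted p under 0.05 on chromosomes other than 15 and 25. On chromosome 25 both held in 3 of 15 such genes (20%). There control 2 was the nearest control in 8 genes and starved 1 the nearest starved fish in 10. The 16 chromosome 15 genes with an unadjusted p under 0.01 were signed by direction and set relative to the control mean. Their median log2 value was 0.17, -0.10 and -0.12 in control and 0.44, 0.67 and 0.72 in starved fish. The share of chromosome 15 genes with an unadjusted p under 0.05 ran from 7.87% without starved 3 to 19.7% without control 1. It lay above the share elsewhere, 2.27% to 5.16%, in each of 14 alternative fits, the nearest being 9.18% against 4.93% without starved 2. Those fits reuse the libraries in which the chromosome was singled out, so they are no separate support. The part of chromosomal position in the feeding comparison was not tested.

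**Figure D5:**
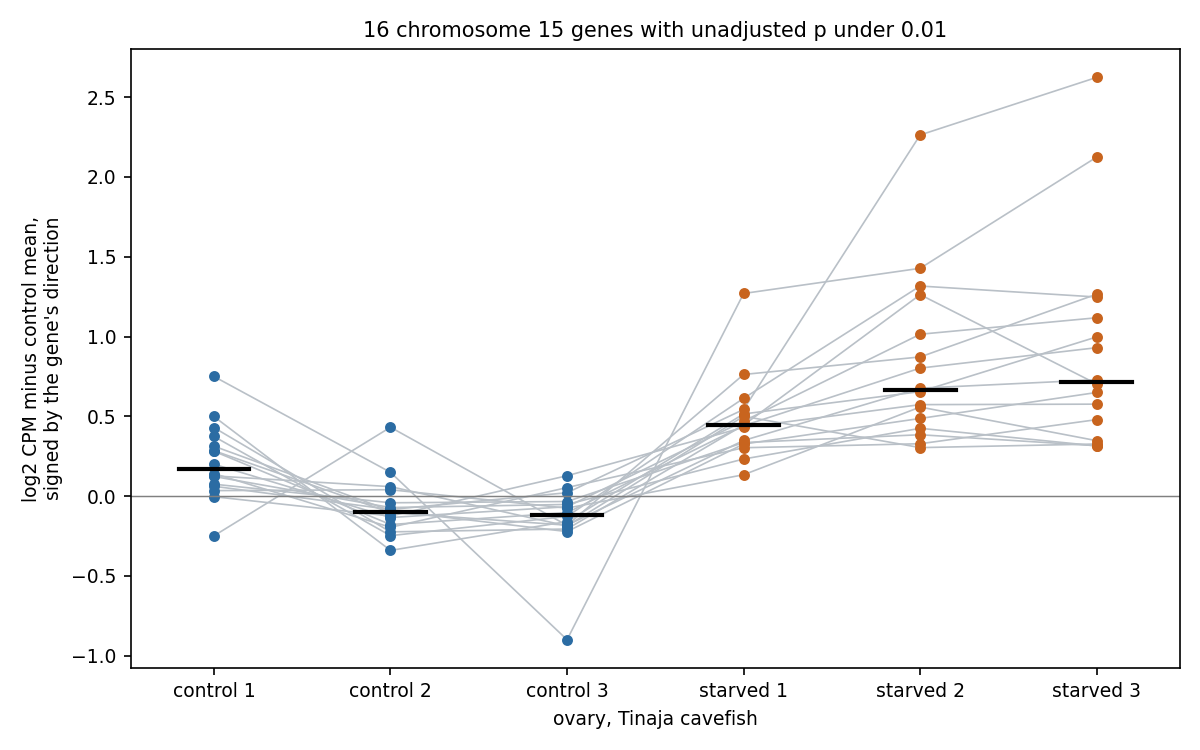
log2 CPM minus the control mean, signed by each gene's direction, for the 16 chromosome 15 genes with an unadjusted p under 0.01 in each Tinaja ovary (points; lines join a gene; black bars are medians). Control 1, at a median of 0.17, lies above the other controls, and starved 1, at 0.44, below the other starved fish.

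The response of the 3 called genes also differed from that of surface fish. The test of the difference between the populations' responses called 10 genes (0.0684%), the 3 among them. It uses the same Tinaja values by which the 3 were called, so it is no separate support for their change. The count of 10 was 270 with DESeq2 and 1 with the replicate block. ENSAMXG00000001654 averaged 81.1 and 88.0 CPM in control and starved surface fish (edgeR adjusted p of the difference 0.00678). BAHCC1 averaged 141 and 120 CPM there (0.0129), and ENSAMXG00000016415 averaged 16.5 and 10.6 CPM (0.0129). DNAH17 averaged 138 and 159 CPM in surface fish.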

How the data were processed

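Bulk RNA of 12 right ovaries was sequenced after depletion of ribosomal RNA, as directional libraries, per the labels' protocols. The authors deposited raw counts of reads per gene and a scaled signal table. STAR 2.7.10b and RSEM are named, with no role, in the submitters' processing notes. Neither build, annotation nor strand setting is given in the sources used here, which leaves values of overlapping, antisense and duplicated genes uncertain. In the deposited signal table, 100% of values were whole multiples of 1 read (tolerance 0.001). Those reads equalled the deposited counts in 100% of values, so testing them had to call the same 3 genes. The entries that name no gene were left out: unmapped reads were 7.44% to 9.98% and multimapping reads 12.1% to 16.8% of each Tinaja library.

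The test was that of edgeR 4.0.16 (R 4.3.3). Genes were filtered by filterByExpr (minimum count 10), scaled by TMM, and fitted by robust quasi-likelihood over all 12 libraries, each group having 1 mean. Two-sided F tests followed, with Benjamini-Hochberg adjustment over 14627 genes, and an adjusted p under 0.05 was called. Each SE was approximated from the log2 value and its F. Alternatives were DESeq2 1.42.0, limma 3.58.1 voom, other scalings, filters, thinning, a replicate block and leaving out each Tinaja library. Log2 levels used a prior count of 2. The floor of 3 reads covers counting error only.

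Members and gene lists were chosen with earlier results of these data known. Named genes were the called genes; the 10 largest differences each way among genes with a symbol, at least 1 CPM on average, an unadjusted p under 0.05 and no overlap; up to 3 of smallest p per list; genes called in other fits; the ends and largest values of the within-group spread (at least 5 CPM); and a set of key genes. Further marker genes, genes silent in single fish and those of chromosomes 15 and 25 were chosen after their values were seen. Only names, chromosomes and gene order were taken from RefSeq. A gene that met this rule is not reported here.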

Additional observations from a re-analysis of the deposited data

Results flagged for a closer look

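The edgeR quasi-likelihood test of the difference between the populations' responses called 10 genes (0.0684%), among them the 3 called in Tinaja cavefish. It uses the same Tinaja values by which the 3 were called, so it is no separate support for their change. ENSAMXG00000001654 fell in Tinaja cavefish and had a log2 difference of 0.12 in surface fish (adjusted p of the difference 0.00678). BAHCC1 rose in Tinaja cavefish and had -0.23 in surface fish (0.0129). ENSAMXG00000016415 had 0 reads in all starved Tinaja fish and a log2 difference of -0.63 in surface fish (0.0129).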

How the results depend on the processing

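The count of 3 called genes was 18 with DESeq2, 1 with limma voom, 0 in the fit of the 6 Tinaja libraries alone (498 genes at an unadjusted p under 0.05 there) and 1 with the replicate block. Leaving out 1 Tinaja library gave 3 to 32, with 19 without control 1 and 32 without starved 1. It was 3 to 4 with other scaling factors, no filter, thinned libraries, recovered reads or without chromosome 15 genes, the last 2 chosen after seeing the data. The recovered reads equalled the deposited counts, so that fit could not differ. The 3 called genes had no matched chromosome, so leaving out chromosome 15 genes could not remove them. Whether they lie on that chromosome was not tested. The count of 10 genes for the difference between populations was 270 with DESeq2, 1 with the replicate block and 8 to 26 leaving out 1 Tinaja library; the fit of Tinaja libraries alone cannot give it. The replicate numbers share only a number: same-numbered deviations correlated at -0.31, -0.24 and -0.04. Under that block BAHCC1 had an adjusted p of 0.0650 and ENSAMXG00000001654 of 0.0561. None of the 3 called genes changed sign in a refit. In refits of 192 named genes, an uncalled gene moved by at least its SE 119 times. A gene was newly called 35 times and a call was lost 8 times. Some of the 192 were named because other fits called them, so the 35 do not describe named genes in general. Of 490 refitted medians of 35 lists, 15 in 10 lists moved by more than the SD of that list's median between ovaries of a group. That SD was wide for some lists: at 0.78 for stroma, its median of -0.04 without control 1 counted as unmoved. Depth limits genes near 3 reads, and 3 ovaries a side limit the rest.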
